A study of Bos taurus with 14 samples.

Results

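The proteasome is the barrel-shaped protease that degrades ubiquitin-tagged proteins in every eukaryotic cell. Its core particle (20S) is built of rings of alpha subunits, which form the gate, and rings of beta subunits, some of which cut peptides. Regulatory caps of ATPases and non-ATPase subunits (19S) bind the core, unfold substrates and thread them in. In immune cells and in cells exposed to interferon, inducible beta subunits replace their constitutive counterparts, and the resulting immunoproteasome, together with the PA28 activator, favours peptides for presentation on MHC class I molecules. Ruminant trophoblast, the outer cell layer of the conceptus, secretes large amounts of interferon tau at this stage, which makes the inducible subunits of interest in this tissue.

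Genes were taken by symbol: every probe set whose single gene symbol begins with PSMA to PSMG followed by a digit. That gave 46 probe sets for 40 genes, out of 24016 probe sets and 9155 named genes measured. Of the 40 genes, 39 encode proteasome subunits, regulators or assembly factors. The remaining one, PSME3IP1, encodes a protein that binds the activator PSME3 and is not a subunit. Of the 50 bovine protein-coding genes with such symbols in RefSeq (assembly ARS-UCD2.0), those without a probe set among the 46 were not analysed here; they include PSMA2, PSMB11, PSMD7, PSMD12 and PSME3. All 40 symbols matched RefSeq by Entrez number. Where a gene had more than 1 probe set (6 genes), the one with the highest mean over all arrays stands for it, and the others are given where they differ.

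Each array measured the RNA of 1 whole Holstein conceptus, an embryo with its membranes. Donor cows had been inseminated from 1 bull, embryos were recovered on Day 6.5 of gestation and graded by their morphology, and they then went to recipient heifers in groups by grade until Day 15. There were 11 conceptuses from Grade 1 embryos, of which 5 were classed as long, 5 as short and 1 had no recorded length, and 3 conceptuses from Grade 3 embryos. The long group held 1 male and 4 females, the short group 2 males and 3 females, the Grade 3 group 2 males and 1 female, and the conceptus without a length was male. The length labels of Grade 1 short replicate 1 contradict each other, one calling it long. Which conceptuses shared a dam or a recipient is not given, so p-values describe only the spread among the conceptuses sampled.

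Values are log2 expression values per probe set, and differences are differences of log2 values. A probe set's level depends on its probes, so levels were compared between conceptuses and not read as differences in expression between genes. On the first principal component of all probe sets, which held 28.85% of the variance, short replicates 4 and 5 lay farthest out on one side (-23.8 and -38.4) and long replicates 1 and 2 on the other (26.7 and 31.6). Short replicate 5 also had the lowest mean correlation with the other arrays (0.9899, against 0.9914 to 0.9943). Of 11 trophectoderm markers 7 were measured. IFNT2 (interferon tau), near the top of the range of values, read 14.37 to 14.61, the epithelial keratin KRT18 read 14.40 to 14.54, and its partner KRT8 read 5.33 to 6.36; no detection calls are at hand for any of them. RNA came from whole conceptuses, so fewer cells of a type and less RNA per cell cannot be told apart.

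The core and cap genes differed little from conceptus to conceptus. Over all 14 arrays, the 6 alpha-ring genes spanned 0.11 to 0.38 log2 units from the lowest to the highest conceptus, the 7 constitutive beta-ring genes 0.16 to 0.30, the 6 cap ATPases 0.18 to 0.59 and the 7 cap non-ATPases 0.14 to 0.56. PSMA7, an alpha-ring subunit, read from 13.35 to 13.46 and PSMD14, the cap's deubiquitinase, from 12.29 to 12.43. The within-group SD of the 46 probe sets had a median of 0.0812, against 0.147 for all 24016. The core and cap genes had means of 9.17 to 13.41, while the array medians were 5.62 to 5.716. Whether other probe sets of like level spread as little was not tested. That of PSMD14 was 0.0244, and 99.9% of all probe sets had a larger one.

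PSMB9 and PSMB10, both inducible subunits, ranged more widely than any core or cap gene read by its brightest probe set. PSMB9, which replaces PSMB6, ranged over 1.25 units, PSMB10, which replaces PSMB7, over 0.94, and PSMB8, which replaces PSMB5, spanned 0.55, within the range of the cap genes. PSMB9 had a within-group SD of 0.39, larger than that of all but 4.18% of probe sets. PSMB9 and PSMB10 had means of 6.92 and 7.02, below those of all core and cap genes, and spread was not compared at like levels. The 4 activator and inhibitor genes spanned 0.35 to 0.70 and the 6 assembly factors 0.31 to 0.60. The map of all 40 genes by conceptus shows this contrast.

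**Figure D1:**
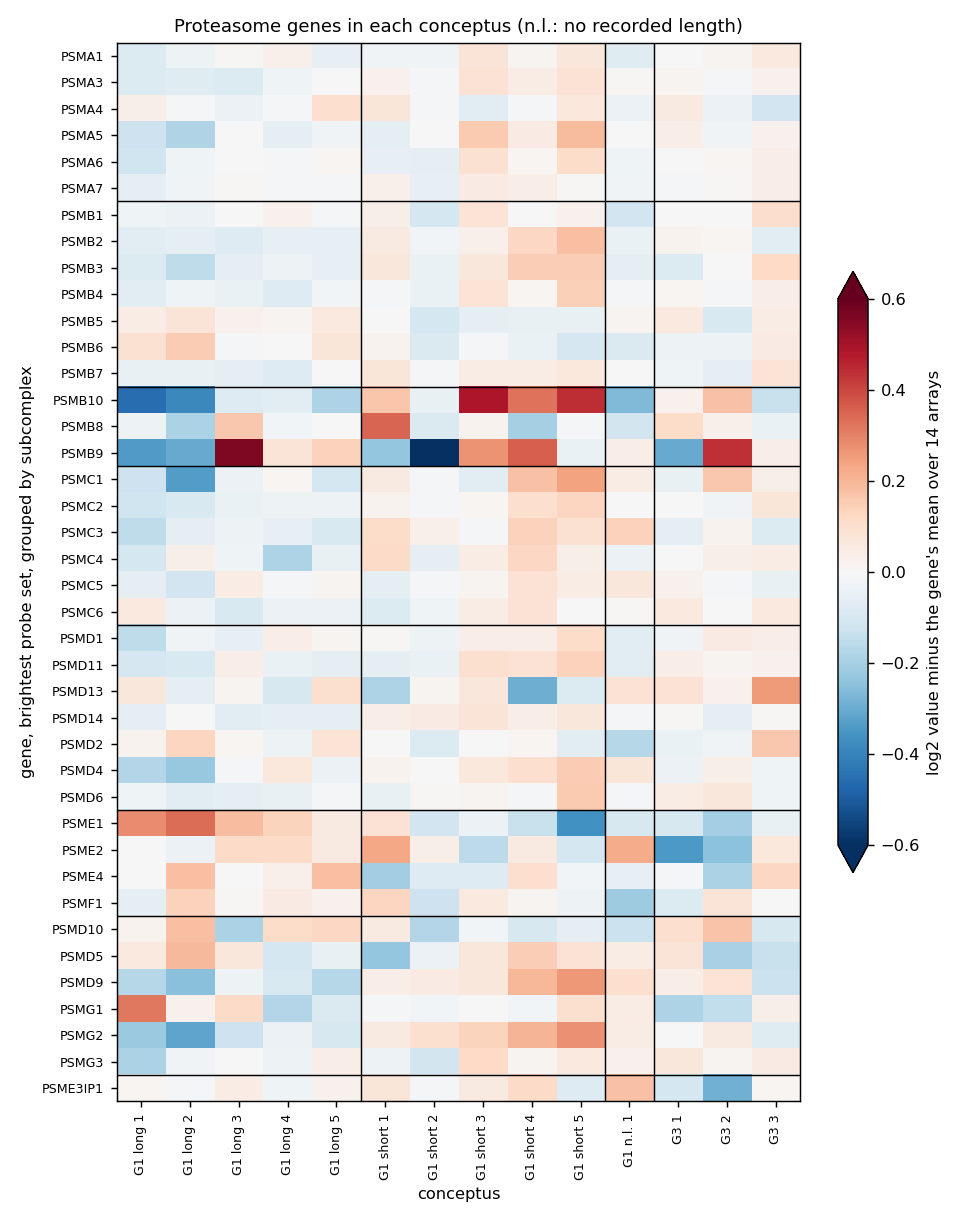
Log2 value of each gene minus that gene's mean over the 14 arrays (colour, in log2 units) for 40 genes (rows, by subcomplex: alpha ring, constitutive beta ring, inducible beta, ATPases, non-ATPases, activators and PI31, assembly factors, PSME3IP1) in 14 conceptuses (columns, by group). Rows of the core and caps are mostly pale, while PSMB10 and PSMB9 carry the deepest colours, PSMB9 ranging over 1.25 units.

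The first comparison asked whether proteasome genes differ with conceptus length when embryo grade is held the same. PSMB10, the inducible trypsin-like catalytic subunit, was lower in long conceptuses by 0.51 log2 units (1.42 fold), and 2 assembly factors were lower by less: PSMG2, which pairs with PSMG1 to assemble the alpha ring, and PSMD9, which helps assemble the ATPase ring. No proteasome gene was called higher, and no core, constitutive catalytic or cap subunit was called. limma called these 3 of 46 probe sets (6.52%), while it called 6.57% of all probe sets, so the share is that of the array as a whole. By direction, 3 of 46 were lower against 3.87% of all, and 0 of 46 higher against 2.7%.

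PSMB10 read 6.56, 6.63, 6.94, 6.95 and 6.83 in long replicates 1 to 5 and 7.18, 6.97, 7.50, 7.34 and 7.46 in short replicates 1 to 5. Every short conceptus lay above every long one, short replicate 2 by the least. The log2 difference was -0.51 ± 0.12 (SE; limma adjusted p = 0.0296; 5 and 5 conceptuses), with a 95% interval from -0.76 to -0.26. The conceptus without a length read 6.75, within the long range, and the 3 Grade 3 conceptuses read 7.04, 7.19 and 6.88.

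PSMG2 read 11.91, 11.82, 12.01, 12.10 and 12.04 in the long conceptuses and 12.19, 12.23, 12.27, 12.34 and 12.41 in the short ones. The groups did not overlap. Its difference was -0.31 ± 0.07 (SE; limma adjusted p = 0.0309; 1.24 fold lower in long). Its partner PSMG1 read 12.24, 11.95, 12.04, 11.75 and 11.84 in long and 11.92, 11.91, 11.93, 11.91 and 12.02 in short conceptuses. It differed by 0.02 (adjusted p = 0.925 in limma), the long values lying on both sides of the short ones.

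PSMD9 read 10.59, 10.51, 10.73, 10.67 and 10.59 in the long conceptuses against 10.80, 10.81, 10.83, 10.96 and 11.02 in the short ones. Again no long conceptus reached the lowest short one, although the gap was 0.07 units. The difference was -0.27 ± 0.07 (SE; limma adjusted p = 0.0431; 1.20 fold lower in long).

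Each of the 3 calls depended on several single conceptuses, while the direction was kept in all 22 alternatives tried for each. PSMB10, PSMG2 and PSMD9 stayed called in 11, 12 and 8 of these 22. With long replicates 1, 2 or 5 or short replicates 4 or 5 left out, limma adjusted p was 0.0632 to 0.0745 for PSMB10. In the same fits it was 0.0589 to 0.0741 for PSMG2 and 0.0918 to 0.102 for PSMD9. Calls over all probe sets fell there too, from 6.57% to between 1.92% and 2.93%. With short replicate 1 counted as long, adjusted p was 0.0839, 0.0675 and 0.0839, and 2.05% of all probe sets were called. PSMB10 also lost its call without short replicate 3 (0.0547). PSMD9 lost it without long replicate 4 (0.0656), short replicate 2 (0.0513) or short replicate 3 (0.0588), and with quantile normalisation repeated (0.0662). Without short replicates 4 and 5 the differences were -0.44, -0.25 and -0.20 for PSMB10, PSMG2 and PSMD9, with adjusted p = 0.174, 0.183 and 0.236. Without long replicates 1 and 2, at the other end of the first component, they were -0.38, -0.24 and -0.22 (adjusted p = 0.173, 0.173 and 0.221). With title prefix fitted as a block, they were -0.43, -0.33 and -0.21 (adjusted p = 0.0869, 0.117 and 0.276). Sample titles share 7 prefixes of unstated meaning, 2 of which hold both lengths. Where a prefix covered 2 long conceptuses and 1 short, long minus short was -0.37 for PSMB10, -0.36 for PSMG2 and -0.25 for PSMD9; where it covered 1 long and 2 short, the values were -0.48, -0.29 and -0.17.

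**Figure D2:**
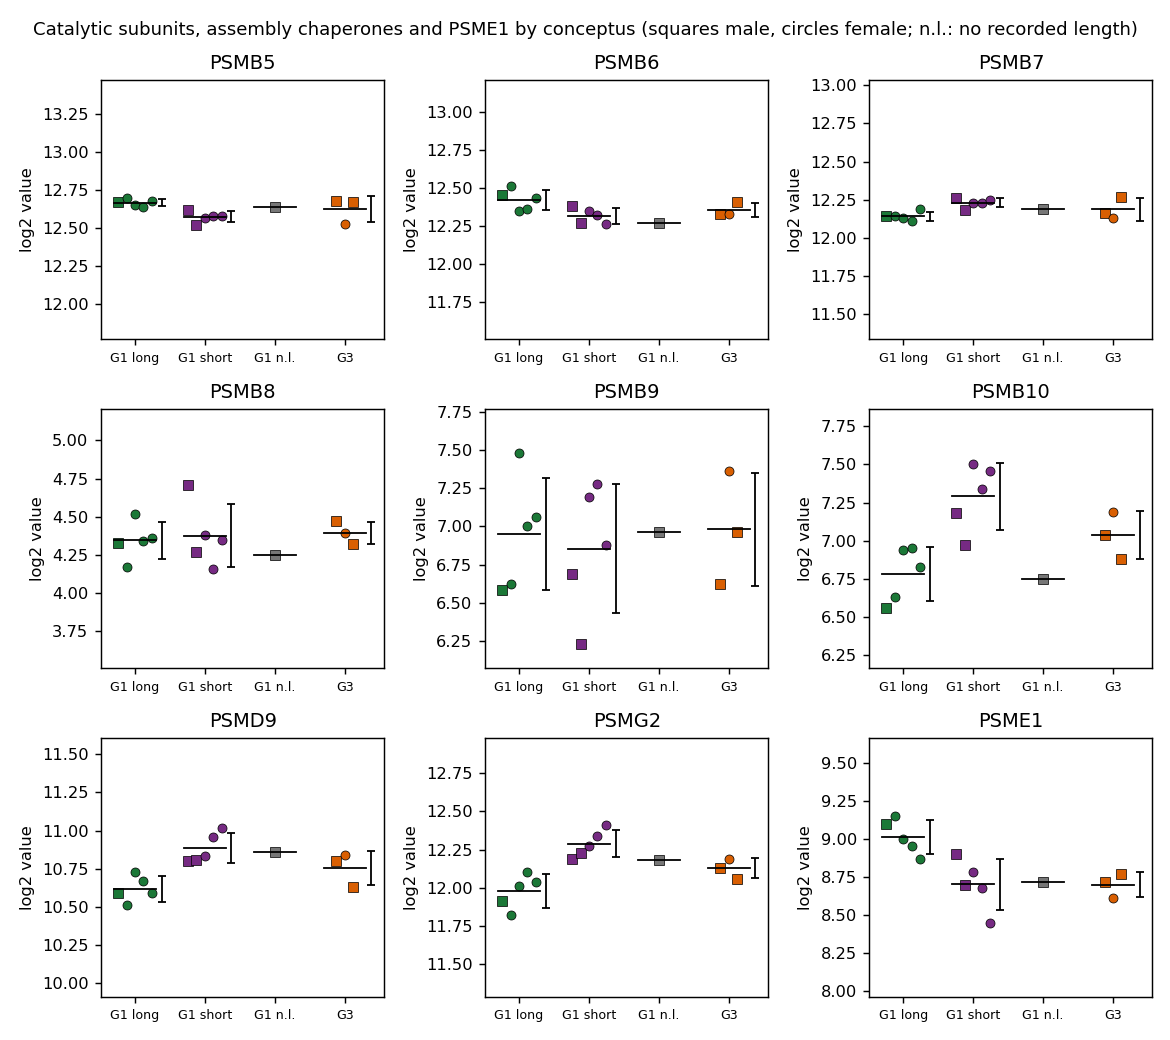
Log2 values (vertical axes, each spanning the same number of log2 units) of the constitutive catalytic subunits PSMB5, PSMB6 and PSMB7, their inducible counterparts PSMB8, PSMB9 and PSMB10, the assembly factors PSMD9 and PSMG2 and the activator PSME1, with 1 point per conceptus, the group mean (line) and SD (bar beside it). PSMB10, PSMD9 and PSMG2 are lower in all 5 long than in all 5 short conceptuses, and PSMB9 spreads from 6.23 to 7.48 with the groups intermixed.

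The other inducible subunits did not pass. PSMB9 read 6.58, 6.62, 7.48, 7.00 and 7.06 in long and 6.69, 6.23, 7.19, 7.28 and 6.88 in short conceptuses. Both groups covered most of the overall range, and the difference was 0.09 with a 95% interval from -0.38 to 0.56 (limma adjusted p = 0.86). PSMB8 read 4.33, 4.17, 4.52, 4.34 and 4.36 in long and 4.71, 4.27, 4.38, 4.16 and 4.35 in short conceptuses, a difference of -0.03 (95% interval -0.26 to 0.19). The values used here hold no detection calls, so whether PSMB8 lay above background was not tested.

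The constitutive catalytic subunits had small differences. PSMB5, the chymotrypsin-like subunit, read 12.67, 12.70, 12.65, 12.64 and 12.68 in long and 12.62, 12.52, 12.57, 12.58 and 12.58 in short conceptuses. These groups did not overlap, long being the higher, but the difference of 0.10 ± 0.05 (SE) did not pass (limma adjusted p = 0.302). PSMB6, the caspase-like subunit, read 12.45, 12.51, 12.35, 12.36 and 12.43 in long and 12.38, 12.27, 12.35, 12.32 and 12.26 in short conceptuses. PSMB7, the trypsin-like subunit, read 12.14, 12.14, 12.13, 12.11 and 12.19 in long and 12.26, 12.18, 12.23, 12.23 and 12.25 in short conceptuses. They differed by 0.11 and -0.09 (adjusted p = 0.316 and 0.346 in limma), and in each the groups overlapped.

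Set against its constitutive counterpart on the same array, and centred on the mean of the 14 conceptuses, PSMB10 minus PSMB7 averaged -0.19 ± 0.19 (SD, n = 5) in the long group and 0.23 ± 0.20 (SD, n = 5) in the short group. Its range was -0.41 to 0.01 in long and -0.04 to 0.44 in short, so the groups overlapped slightly. PSMB9 minus PSMB6 averaged -0.04 ± 0.42 and -0.02 ± 0.41, and PSMB8 minus PSMB5 -0.06 ± 0.14 and 0.07 ± 0.18. No test was run on these within-array values.

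The remaining core and cap genes leaned slightly to the lower side in long conceptuses without passing. The differences were below 0 in 5 of 6 alpha-ring genes (median -0.05), 5 of 7 constitutive beta-ring genes (-0.09), 6 of 6 ATPases (-0.12) and 5 of 7 non-ATPases (-0.07). An unadjusted p under 0.05 was found for 10 of 46 probe sets (21.7%), against 22% of all. In all, 33 of the 46 probe sets were below 0 (71.7%), against 55.7% of all probe sets. The median difference of the 40 genes was -0.05, against -0.02 over all probe sets. The plot of differences with intervals shows how narrow these were. For 37 of the 40 genes the 95% interval of the long-minus-short difference lay wholly within 0.5 log2 units of 0; the exceptions were PSMB10, PSMB9 and PSME1.

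**Figure D3:**
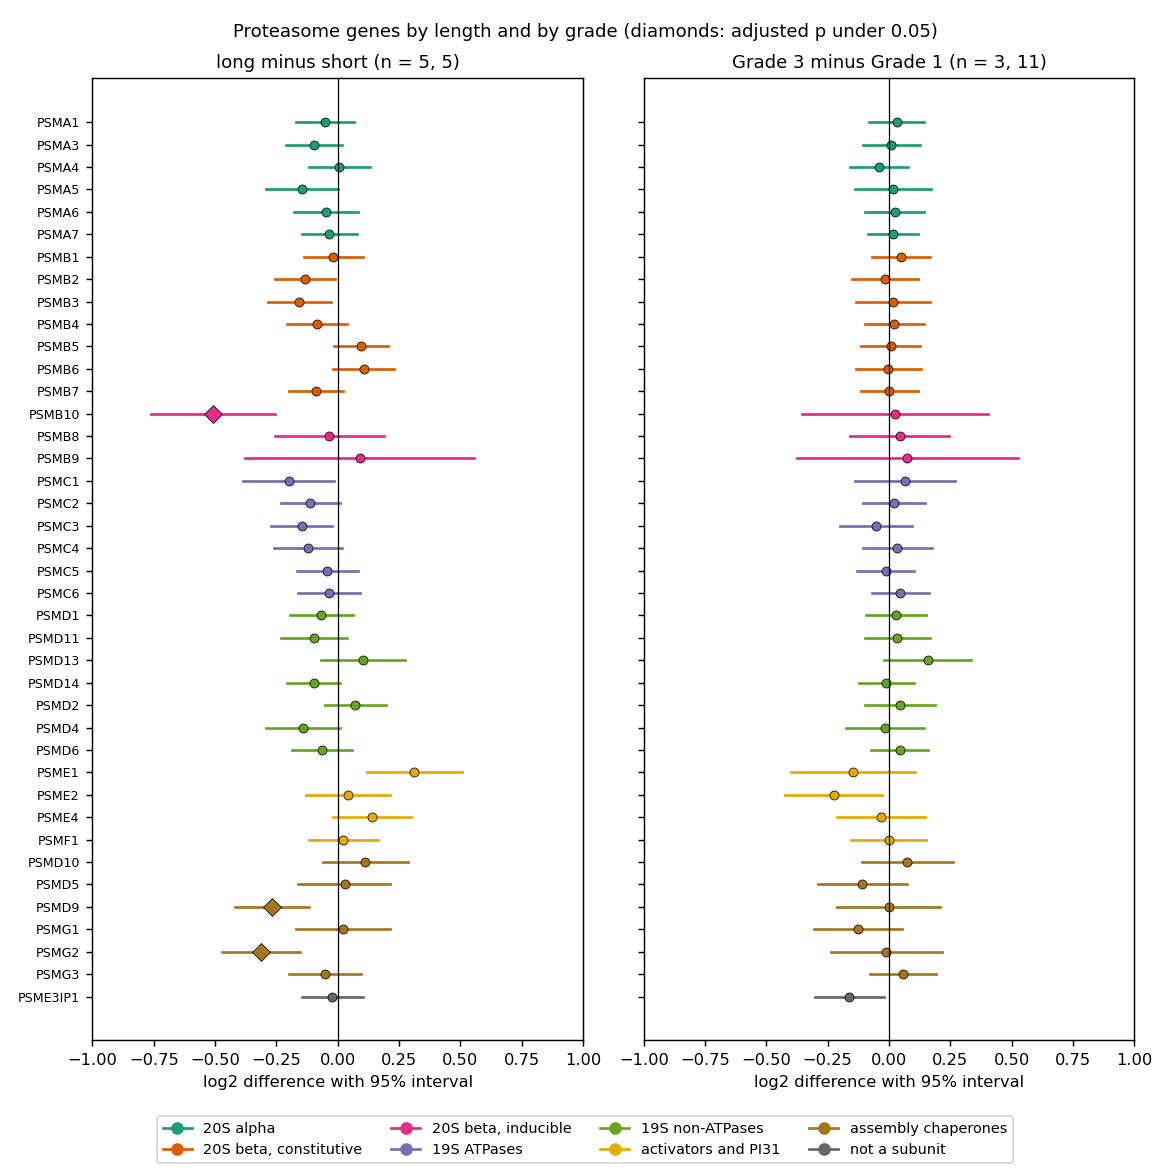
Log2 difference (point) and its 95% interval from limma (line) for 40 genes, long minus short on the left (5 and 5 conceptuses) and Grade 3 minus Grade 1 on the right (3 and 11), coloured by subcomplex. PSMB10, PSMD9 and PSMG2 (diamonds) are the only genes past the threshold, on the left, and no gene passes on the right.

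Among the ATPases, which unfold the substrate, PSMC1 read 10.36, 10.15, 10.45, 10.5 and 10.38 in long and 10.54, 10.48, 10.42, 10.66 and 10.73 in short conceptuses, overlapping between 10.42 and 10.5. It differed most at -0.20 (limma adjusted p = 0.195) and PSMC3 at -0.15 (0.147); PSMC3 read 11.03 to 11.15 in long and 11.17 to 11.32 in short conceptuses, without overlap. PSMD14 read 12.29 to 12.35 in long and 12.39 to 12.43 in short, also without overlap, but differed only by -0.10 (adjusted p = 0.276 in limma). In total the groups did not overlap in 10 of 46 probe sets (21.7%), against 8.42% of all probe sets: 9 lower in long (5.52% of all) and 1 higher (2.9% of all). These were the probe sets of PSMB10, PSMG2, PSMD9, PSMB5, PSMC2, PSMC3 and PSMD14, both of PSMB2 and the dimmer one of PSMD4. PSMC2 is an ATPase, PSMB2 a beta-ring subunit without catalytic activity, and PSMD4 a ubiquitin receptor of the cap.

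In all 6 genes with a second probe set, both had the same sign for length. The dimmer probe set of PSMD4 stood at -0.28 (limma adjusted p = 0.0605), against -0.14 (0.265) for the brighter one, and that of PSMB2 at -0.22 (0.0908) against -0.13 (0.195). The dimmer probe set of PSMD6, a cap subunit, stood at -0.36 (0.25), but in the short group 2 conceptuses read 7.08 and 6.97 and the other 3 between 6.15 and 6.43, all 5 long ones lying from 6.10 to 6.31. Its brighter probe set differed by -0.06.

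The activators leaned the other way. PSME1, the alpha subunit of PA28, read 9.10, 9.15, 9.0, 8.95 and 8.87 in long and 8.90, 8.70, 8.78, 8.68 and 8.45 in short conceptuses. Only short replicate 1, the conceptus with contradictory labels, reached into the long range. The difference was 0.31 ± 0.09 (SE) and missed the threshold (limma adjusted p = 0.0591). PSME1 passed in 5 of 22 alternatives. It did so with sex as a covariate (0.34, limma adjusted p = 0.0323), with quantile normalisation repeated (0.0395) and among the probe sets above the median level (0.0359). It also passed with the title prefix as a random block (0.0497) and in 1 of 10 single leave-outs, without short replicate 1 (0.36, 0.0349). In the alternatives where it did not pass, adjusted p reached 0.293. PSME2, the beta subunit, read 8.80, 8.76, 8.91, 8.91 and 8.85 in long and 9.03, 8.83, 8.64, 8.85 and 8.69 in short conceptuses, and differed by 0.04 (adjusted p = 0.82 in limma). PSME1 and PSME2 lie on either side of EMC9 in RefSeq. PSME4, the PA200 activator, read 8.89, 9.07, 8.89, 8.92 and 9.07 in long and 8.68, 8.81, 8.81, 8.99 and 8.87 in short conceptuses, a difference of 0.14 (adjusted p = 0.299 in limma) with overlapping groups. PSMF1, the inhibitor PI31, differed by 0.02. PSMD10, gankyrin, a further assembly factor of the ATPase ring, read 11.30, 11.46, 11.09, 11.39 and 11.40 in long and 11.33, 11.10, 11.26, 11.18 and 11.22 in short conceptuses, a difference of 0.11 (adjusted p = 0.455).

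Markers of blood and immune cells, in which immunoproteasome subunits are abundant, were read beside PSMB10. Of 15 listed genes, 12 were measured, and 1 passed: CD8A fell by 0.84 in long conceptuses (limma adjusted p = 0.0322), in the direction of PSMB10. The mean level over the 12 genes lay between 4.55 and 4.81 in long and between 4.63 and 4.92 in short conceptuses. The leukocyte gene PTPRC read 2.74 to 3.30 and the T-cell gene CD3E 4.10 to 4.86 over all 14. Single markers of the conceptus's own cell layers were called as well, in both directions. Of 4 measured of 6 hypoblast markers, PDGFRA was lower in long conceptuses by -1.80 and APOA1 higher by 0.59 (limma adjusted p = 0.00759 and 0.00982). The mean of all 4 was 8.87 to 9.20 in long and 9.33 to 9.58 in short conceptuses. PDGFRA, with the largest difference of the 4, read 5.03 to 6.11 in long and 7.20 to 7.74 in short. GATA4 (6.51 to 6.81 in long, 6.54 to 7.08 in short) and GATA6 (10.46 to 10.90 and 10.78 to 11.03) overlapped between the groups. Of 3 measured of 4 epiblast markers, DNMT3B was lower by -0.39 (adjusted p = 0.0337), the mean of the 3 being 5.56 to 5.99 in long and 5.94 to 6.44 in short. Of the 7 trophectoderm markers, TFAP2A was higher by 0.38 (adjusted p = 0.045). Among 8 endothelium markers 1 was called each way, PECAM1 higher by 0.99 (limma adjusted p = 0.00902) and SOX18 lower (-0.84). None of 8 endometrial epithelium markers and 7 measured erythroid markers was called by length. The part of any of these cell types in the differences of PSMB10, PSMG2 and PSMD9 was not tested.

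In the wider pathway lists single genes passed, beside 6.57% of all probe sets. Among 17 measured partners of the proteasome outside the PSM symbols, the ubiquitin shuttle UBQLN1 rose by 0.37 ± 0.08 (SE; limma adjusted p = 0.0203) and AKIRIN2, which brings proteasomes into the nucleus, fell by 0.22 ± 0.05 (adjusted p = 0.0397); the median was -0.01. The core assembly factor POMP differed by -0.05. Among 16 ubiquitin and conjugating-enzyme genes, UBE2E1 fell by 0.26 ± 0.05 (adjusted p = 0.0231 in limma; median -0.04). Among 15 genes of MHC class I presentation and its inducers, 1 passed: B2M, the invariant chain of MHC class I, rose by 0.62 ± 0.12 (adjusted p = 0.0192; median 0.06). B2M read 11.36 to 11.84 in short and 12.06 to 12.64 in long conceptuses, without overlap, opposite in direction to PSMB10.

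The second comparison asked whether conceptuses from poorly graded embryos differed in these genes. The study's design sets 4 Grade 1 conceptuses against Grade 3 without naming them, so all 11 were used here and the contrast differs from the stated one. No title prefix held both grades, so grade cannot be told apart from whatever the prefix stands for, here and in the comparisons with each length class. limma called 0 of 46 probe sets between the 3 Grade 3 and the 11 Grade 1 conceptuses, and 0% of all 24016. At an unadjusted p under 0.05 there were 2 of 46 (4.35%), PSME2 and PSME3IP1, against 5.06% of all probe sets. The groups were apart in 0 of 46, against 0.554% of all. The median difference over the 40 genes was 0.02. For 39 of 40 genes the 95% interval lay within 0.5 log2 units of 0, PSMB9 (-0.37 to 0.52) being the exception. For the alpha ring all intervals lay between -0.16 and 0.17, and for the constitutive beta ring between -0.15 and 0.17.

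PSME2 had the largest difference by grade. It read 8.45, 8.55 and 8.86 in the Grade 3 conceptuses and 8.64 to 9.03 (median 8.85) in the 11 Grade 1 conceptuses. Grade 3 replicates 1 and 2 were the lowest of all 14, and replicate 3 lay among the Grade 1 values. The difference was -0.23 ± 0.09 (SE; limma adjusted p = 0.966). PSME3IP1 read 9.13, 8.95 and 9.25 in Grade 3 and 9.16 to 9.41 (median 9.26) in Grade 1, a difference of -0.16 ± 0.07 (SE; limma adjusted p = 0.966). PSME1 differed by -0.15 and PSMG1 by -0.13. On the other side, PSMD13, a cap subunit, read 9.26, 9.20 and 9.43 in Grade 3 and 8.88 to 9.27 (median 9.19) in Grade 1, a difference of 0.16 ± 0.08 (SE). PSMD10 and PSMB9 followed at 0.08 each, and adjusted p was 0.999 in limma for these 5 genes. In the wider lists limma called none by grade; the smallest p-values were those of UBQLN1 (-0.25), the conjugating enzyme UBE2D2 (-0.15) and the peptide-trimming protease ERAP2 (0.13).

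Grade 3 conceptuses were also set against each length class, in comparisons that share the same 3 Grade 3 conceptuses. limma called 0 of 46 probe sets against long and 0 against short (0% of all probe sets in both); at an unadjusted p under 0.05 there were 2 of 46 in each (4.35%), against 9.06% and 10.6% of all. The groups were apart in 7 of 46 probe sets against long (15.2%, against 7.14% of all). Against short they were apart in 3 of 46 (6.52%, against 6.08% of all). Read by the brightest probe set, they were apart in 3 of 40 genes against long and 2 of 40 against short. PSMB10 in Grade 3 was 0.25 above long and -0.26 relative to short (adjusted p = 0.597 and 0.512 in limma), with group means of 6.78 in long, 7.04 in Grade 3 and 7.29 in short. PSMG2 stood at 0.15 and -0.16, and PSMD9 at 0.14 and -0.13. For the 3 genes called by length, Grade 3 means fell between the length classes. These genes were picked for the distance between those classes, so that position says little about grade. They differed from neither class beyond the threshold, and neither did any other probe set.

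PSME1 stood at -0.32 ± 0.10 (SE; adjusted p = 0.387 in limma) against long, with the Grade 3 values of 8.72, 8.61 and 8.77 all below the lowest long value of 8.87, and at -0.00 against short. PSMD13 stood at 0.12 against long and 0.22 against short (adjusted p = 0.739 and 0.416). In the wider lists none was called; the smallest p-values were those of UBQLN1 (-0.44), the conjugating enzyme UBE2K (0.18) and the interferon receptor chain IFNAR1 (-0.24) against long, and of the transcription factor NFE2L1 (0.10), UBE2D2 (-0.19) and the peptide-trimming protease ERAP1 (-0.72) against short. Averaged over each subcomplex and centred on the mean of all 14, Grade 3 conceptuses lay at 0.01 ± 0.01 for the alpha ring, 0.01 ± 0.04 for the constitutive beta ring, 0.01 ± 0.02 for the ATPases and 0.03 ± 0.03 for the non-ATPases (SD, n = 3). The activators and PI31 averaged -0.08 ± 0.10 in Grade 3, 0.09 ± 0.04 in long and -0.04 ± 0.07 in short conceptuses. The inducible subunits averaged 0.04 ± 0.15, -0.08 ± 0.21 and 0.07 ± 0.20.

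Male and female conceptuses occur in each main group, and sex was compared with the groups as covariates (6 males, 8 females). The male without a length, alone in its group, adds nothing to the differences adjusted for group. limma called 0 of 46 probe sets, against 0.458% of all, and 4 of 46 (8.7%) had an unadjusted p under 0.05, against 12.6%. They were PSMB10, PSMB9 and the dimmer probe sets of PSMC5 (-0.20) and PSMC6 (-0.17), both ATPases, whose brighter probe sets stood at -0.05 and 0.01. The smallest p-values belonged to 2 inducible subunits, both lower in males, with means of 6.90 ± 0.22 in males and 7.11 ± 0.32 in females for PSMB10 and of 6.68 ± 0.27 and 7.11 ± 0.28 for PSMB9 (SD, n = 6 and 8). Adjusted for group, PSMB10 differed by -0.30 ± 0.08 and PSMB9 by -0.57 ± 0.14 (SE; adjusted p = 0.121 and 0.123 in limma). Each passed in 1 of 18 alternatives, the fit without long replicate 2, at -0.32 (0.0463) and -0.62 (0.043). There 0.933% of all probe sets were called. Without short replicate 2, limma adjusted p was 0.259 for PSMB10 and 0.26 for PSMB9. Among the brighter probe sets, the assembly factor PSMG3, which read 9.67, 9.84, 9.86, 9.83 and 9.90 in long, 9.83, 9.75, 9.98, 9.88 and 9.92 in short and 9.93, 9.88 and 9.91 in Grade 3 conceptuses, followed at -0.11, and PSME1 was the highest in males at 0.14, ahead of PSMG1 and PSME2 at 0.10 each. PSMD10 is X-linked and differed by -0.06 (adjusted p = 0.8). Of the pathway lists, the X-linked ubiquitin-activating enzyme UBA1 and the X-linked shuttle UBQLN2 were lower in males by -0.38 and -0.48 (adjusted p = 0.0367 and 0.0204).

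The spread of PSMB9 was shared by TAP1, next to it on the chromosome, and by TAP2, but not by B2M or the low-reading PSMB8. In RefSeq, TAP1, a subunit of the transporter that carries proteasome-made peptides into the endoplasmic reticulum, lies between PSMB8 and PSMB9, and TAP2, the other transporter subunit, lies on the same chromosome with 1 protein-coding gene between it and PSMB8. PSMB9 was highest in long replicate 3 (7.48), Grade 3 replicate 2 (7.36) and short replicates 4 (7.28) and 3 (7.19). The same 4 conceptuses were the highest in TAP1, at 9.38, 9.66, 9.67 and 9.48, and in TAP2, at 10.34, 10.12, 9.96 and 9.70. They come from both lengths and from both grades; all 4 were female, and 3 of them share a title prefix.

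PSMB8, on the other side of TAP1, did not show the pattern. It was highest in short replicate 1 (4.71), and 2 of its top 4 conceptuses were among these 4. Its mean of 4.36 lay below the array medians, and whether it was above background was not tested, which limits this contrast. The top 4 for PSMB10, which lies elsewhere between PSKH1 and LCAT, included 3 of these 4 conceptuses. The top 4 for B2M included 0 of them. TAP1 and TAP2 were lower in males by -0.76 and -0.60 without passing (limma adjusted p = 0.0645 and 0.175). Sexes could be compared inside 2 title prefixes. In one, 3 males (long, short and without a length) and 1 long female mix sex with length, so only its long male and long female were set against each other: male minus female was -0.04 for PSMB9, -0.24 for TAP1 and -0.07 for PSMB10. In the Grade 3 prefix with 1 of each sex it was -0.40, -0.49 and -0.31. For B2M it was 0.18 in the long pair and 0.64 in the Grade 3 pair. Each of these is a difference between 2 conceptuses, with no test.

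**Figure D4:**
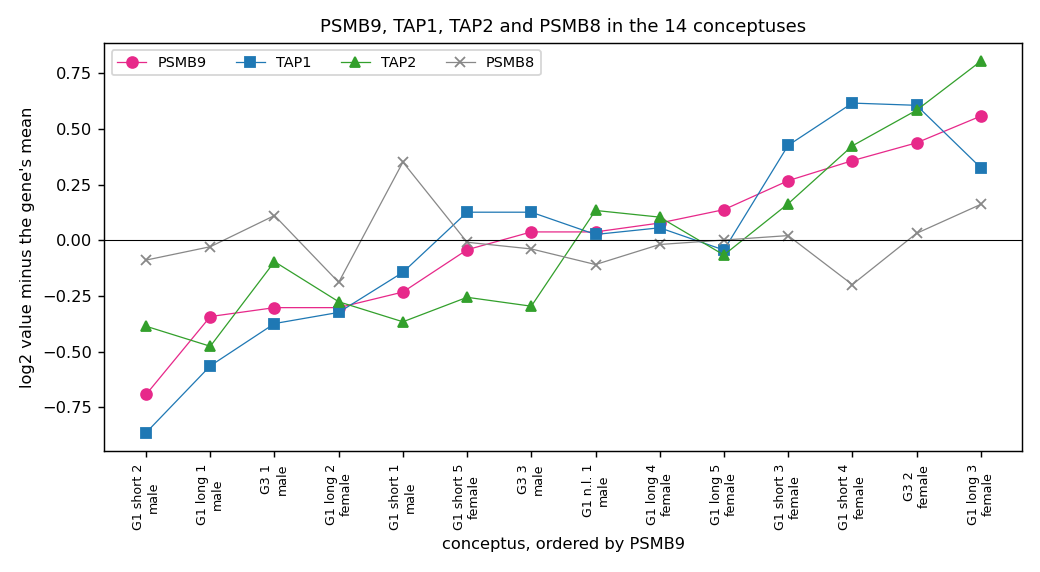
Log2 value minus the gene's mean over the 14 arrays (vertical axis) for PSMB9, TAP1, TAP2 and PSMB8 in each conceptus, ordered from the lowest PSMB9 on the left to the highest on the right, with group, replicate and sex below; lines only join points of a gene. The 4 conceptuses on the right are the highest in PSMB9, TAP1 and TAP2, while PSMB8 spans 0.55 units and peaks in short replicate 1.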

How the data were processed

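The authors deposited log2 expression values per probe set, and the submitters' processing notes name RMA and Expression Console as their source, without versions. Per the labels' protocols, biotin-labelled RNA was prepared from 250 ng of total RNA. Of 24128 probe sets, 112 array controls were removed. Symbols came from the platform annotation (13292 probe sets with 1 symbol, 86 with several, 10638 with none). Arrays have no read depth; their number limits precision.

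Each comparison was fitted over all 24016 probe sets with limma 3.58.1 (lmFit, eBayes; R 4.3.3), two-sided, with Benjamini-Hochberg adjustment and a threshold of 0.05: length on 10 conceptuses, grade on all 14, Grade 3 against each length class and sex in fits with all 4 groups. The fit was tested on simulated data. Alternatives changed the normalisation, the filter on dim probe sets, blocks, covariates and the conceptuses included. The members and gene lists were chosen with earlier results of these data known. Genes described by conceptus are those past the threshold, the catalytic subunits, the PA28 genes and, in each comparison, the 3 largest differences each way; a gene is given by conceptus once. Wider lists name the genes past the threshold, or the smallest p. No sequence of these genes was used here.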

Additional observations from a re-analysis of the deposited data

Results flagged for a closer look

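In each of the long and short groups, the gap from the lowest or highest conceptus to its nearest neighbour was divided by the group's range. A conceptus was singled out where this ratio exceeded Dixon's critical value for 5 samples. With 40 genes in 2 groups this made 80 checks, of which chance alone flags about 1 in 20, and 5 were found. In the long group, PSMD14 stood at 12.35 in replicate 2, against 12.29 to 12.30 in the others, and replicate 1 was low in PSMA6 (12.84, against 12.93 to 12.97) and in PSMG3, an assembly factor (9.67, against 9.83 to 9.90). In the short group, replicate 5 was high in PSMD6 (11.22, against 11.02 to 11.08) and in PSMG1 (12.02, against 11.91 to 11.93). The interaction of sex with length rests on 1 long male and that with grade on 1 Grade 3 female, so a lack of calls says little. limma called 0 of 46 probe sets and 0 of all 24016 for either, with 1 of 46 at an unadjusted p under 0.05 in each, against 3.82% of all for length and 4.68% for grade.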

How the results depend on the processing

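For length, the count of called proteasome probe sets (3) became 6 among the probe sets above the median level, 5 with an intensity trend and 5 with sex as a covariate, where 17.2%, 7.59% and 10% of all probe sets tested were called, against 6.57%. It became 0 with short replicate 1 counted as long, with title prefix fitted as a block, or without short replicates 4 and 5, short replicates 1 and 5 or long replicates 1 and 2 (these 3 removals were chosen after the data were seen). Leaving out 1 conceptus gave 0 to 4. The count was 0 without long replicates 1, 2 or 5, where 2.73%, 2.22% and 2.12% of all probe sets were called. It was also 0 without short replicates 4 or 5 (1.92% and 2.93% of all) and 1 without short replicate 3 (4.93%). Repeated quantile normalisation gave 3 calls, with PSME1 in place of PSMD9, and turned the split over all probe sets from 648 higher and 929 lower to 743 and 723. The calls over all probe sets moved with the settings, from 1577 to 51 without short replicates 4 and 5, to 49 without long replicates 1 and 2 and to 112 with the block. For sex, leaving out 1 conceptus gave 0 to 2, while 0.208% to 0.933% of all probe sets were called. For grade and for Grade 3 against either length class it stayed 0 in every alternative run. Among 659 recomputed values of named genes, 603 kept direction and side of the threshold, 35 lost and 7 gained a call, and 14 changed sign without being called in either fit, at most at 0.114 in size. No call was reversed. The labels give no replicate numbers that link conceptuses across groups, so no fit was paired by them; the title prefix was the only block. Signal over background is not given with the values used here, which limits what can be said of PSMB8.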
